A study of Mus musculus with 23 samples.

Results

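The NADPH oxidases and dual oxidases of the lung were followed through 9 genes, chosen by name: Duox1, Duox2, Duoxa1, Duoxa2, Nox4, Cybb, Cyba, Ncf1 and Lpo. These are 9 of the 35322 genes in the table, and each has 1 row. A gene was tested where it reached 0.5 RPM (reads scaled to the size of the library) in at least 4 of the 23 libraries, which 16795 genes did, among them 7 of the 9. Duoxa2 and Lpo did not reach that level in any library and are described by their reads.

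RNA was sequenced from a right lung lobe (given as RML in the labels and as the lower lobe in the study's methods) of female Balb/c offspring at 13 weeks of age, after a lung function test. Dams received intranasal PM2.5 (fine roadside particulate matter) in saline, or saline alone, before mating, through gestation and until weaning, and the offspring were not dosed with particles themselves. Offspring were then sensitised to ovalbumin (OVA) with an aluminium adjuvant and challenged with nebulised OVA, a model of allergic airway disease, or were nebulised with saline (PBS in the labels), and it is not given clearly whether the latter had been sensitised. The groups were Sham (saline dam, no OVA, n = 7), PM (PM2.5 dam, no OVA, n = 7), Sham-OVA (saline dam, OVA, n = 5) and PM-OVA (PM2.5 dam, OVA, n = 4). All animals were of the same strain, and no altered allele is named. Which animals were littermates is not given in the labels, so p-values measure the spread between these animals. Airways were lavaged in the study after the lung function test, and whether this was done in these animals is not given in the sources used here. Lung markers were present in every library, with Sftpc of alveolar type 2 cells at least 6490 RPM, Scgb1a1 of club cells at least 3404 RPM and Ager of alveolar type 1 cells at least 1242 RPM.

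NADPH oxidases pass electrons from NADPH across a membrane to oxygen. Cybb (gp91phox, NOX2) is the catalytic chain of the phagocyte enzyme, Cyba (p22phox) is its membrane partner and also that of Nox4, and Ncf1 (p47phox) is the cytosolic organiser that joins the complex on activation. Duox1 and Duox2 are the dual oxidases of airway and thyroid epithelium, which release hydrogen peroxide to the surface, and each leaves the endoplasmic reticulum only with its maturation factor, Duoxa1 or Duoxa2. Lpo, lactoperoxidase, uses that hydrogen peroxide to oxidise thiocyanate in airway fluid. Nox4 produces hydrogen peroxide without a stimulus and is known from fibroblasts, endothelium and smooth muscle.

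Duox2, Duoxa2, Duoxa1 and Duox1 lie together on chromosome 2, in 68.7 kb of build GRCm38 (chr2:122279247-122347972). From left to right these are Duox2 (minus strand), Duoxa2 (plus), Duoxa1 (minus) and Duox1 (plus), so that each oxidase stands head to head with its own maturation factor. Duoxa1 and Duox1 start 1941 bp apart, while Duox2 and Duoxa2 start 450 bp apart. The 3' ends of Duoxa1 and Duoxa2 overlap by 695 bp on opposite strands. The libraries were made with a stranded kit, but whether counting used the strand is not given in the sources used here, so reads from this overlap cannot be assigned with certainty. The other members lie apart: Nox4 at chr7:87246096-87398710, Cybb at chrX:9435252-9487771, Cyba at chr8:122424776-122432930, Ncf1 at chr5:134220053-134229625 and Lpo at chr11:87806428-87828289.

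Promoter windows of 250 bases ending at the base before the start were taken from RefSeq (build GRCm38.p6), which held all 9 genes. They were searched on both strands for TTC and GAA with 4 or with 3 bases between them, the spacings bound by STAT factors, for the TATA box TATAAA and for the GC box GGGCGG. Of 32851 windows of the same length, 5.85%, 7.02%, 12.4% and 32.7% hold these motifs, in that order. The windows of Duoxa1 and Duox1, the pair that rose, and of Duoxa2, the neighbour that stayed near 0, are printed 5' to 3' with matches in capitals.
Duox1 (chr2:122315422-122315671, plus strand): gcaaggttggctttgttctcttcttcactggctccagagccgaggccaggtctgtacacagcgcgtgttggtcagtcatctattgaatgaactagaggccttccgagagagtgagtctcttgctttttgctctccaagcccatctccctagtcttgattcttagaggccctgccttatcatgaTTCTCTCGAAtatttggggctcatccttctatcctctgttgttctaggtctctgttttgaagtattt
Duoxa1 (chr2:122313731-122313980, minus strand): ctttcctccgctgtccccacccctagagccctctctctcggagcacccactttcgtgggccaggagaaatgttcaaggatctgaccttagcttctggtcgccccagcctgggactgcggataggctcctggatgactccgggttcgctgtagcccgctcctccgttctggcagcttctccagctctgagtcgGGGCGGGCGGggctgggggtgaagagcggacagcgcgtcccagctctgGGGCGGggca
Duoxa2 (chr2:122298650-122298899, plus strand): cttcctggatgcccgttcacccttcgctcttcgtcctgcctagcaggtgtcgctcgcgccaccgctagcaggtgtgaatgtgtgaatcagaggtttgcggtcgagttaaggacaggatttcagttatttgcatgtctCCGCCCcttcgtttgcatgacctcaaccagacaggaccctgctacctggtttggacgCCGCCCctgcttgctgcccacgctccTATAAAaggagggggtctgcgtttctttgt

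The Duox1 window held 1 match with 4 bases between, TTCTCTCGAA, from -67 to -58 relative to the start, and no TATA or GC box. The Duoxa1 window held 3 GC boxes, of which the 2 from -58 to -53 and from -54 to -49 overlap, and no other match. In the Duoxa2 window there was a TATA box from -30 to -25 and 2 GC boxes read on the other strand. Duox2 had no match, and 222 of its 250 bases lie in annotated exons, so it is not printed. Of the other members, Nox4, which fell, and Ncf1, which rose, each held 1 match with 3 bases between, TTCTAGGAA from -222 to -214 and TTCTCAGAA from -88 to -80. Nox4 and Ncf1 also held 1 GC box each and Cyba 2, and the windows of Cybb and Lpo held no match. A match describes letters only, and a missing match says only that these letters are not in the window.

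Libraries differed in depth and in ways that touch several of these genes. Reads on genes ranged from 13089691 to 17393579 in the 14 libraries without OVA and from 2298645 to 12355561 in the 9 OVA libraries, and the 3 shallowest were replicate 3 of Sham-OVA and replicates 3 and 4 of PM-OVA. Sham replicate 1 had Xist at 0.289 RPM and the Y-linked Eif2s3y at 54.0 RPM, against at least 174 RPM and 0 RPM in the other 22, which goes against the description of the animals as female. Without it the 7 genes tested still passed in Sham-OVA against Sham, with Cybb at 0.67 (adjusted p = 0.0249, limma), and 11 ratio tests passed as with it. Differences with OVA also fell with gene length: the median log2 fold change of all genes tested was -0.48 in the Sham cohort (Sham-OVA against Sham) and -0.43 in the PM cohort (PM-OVA against PM), and it went from 0.17 and 0.20 in the shortest of 10 bins of exon length to -1.10 and -1.05 in the longest. Of the genes called, 30.2% and 30.8% were higher with OVA, against 49.6% and 50.1% by edgeR on the recovered reads. The fold changes below stand beside these medians, and the part of depth and gene length in them was not tested.

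OVA challenge went with higher Duox1 and Duoxa1, lower Nox4, and higher Cyba and Ncf1 in the offspring of both saline and PM2.5 dams. In Sham-OVA against Sham, 7 of the 7 genes tested passed an adjusted p of 0.05 (limma, Benjamini-Hochberg over all genes), 5 higher and 2 lower, where 68.1% of all genes passed, 20.6% higher and 47.5% lower. In PM-OVA against PM, 6 of the 7 passed, 4 higher and 2 lower, where 65.3% of all genes passed, 20.1% higher and 45.2% lower. The OVA group did not overlap its own group without OVA for 6 of the 7 genes in the Sham cohort, 4 higher and 2 lower, where 48.1% of all genes did not overlap, 13.2% higher and 35% lower. In the PM cohort 5 of the 7 did not overlap, 4 higher and 1 lower, where 41.9% of all genes did not, 13.3% higher and 28.6% lower. Duox1 and Duoxa1 reached 0.5 RPM in OVA libraries alone, and Duox2 in 10 libraries without OVA and 0 with it. These 3 passed the filter through the side where they are high, which favoured a difference, and the counts are no evidence about the genes as a group. In whole tissue, a change in the number of cells of a type and in RNA per cell cannot be told apart. Differences are on the log2(RPM + 0.5) scale, which understates the change of genes with few reads.

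**Figure D1:**
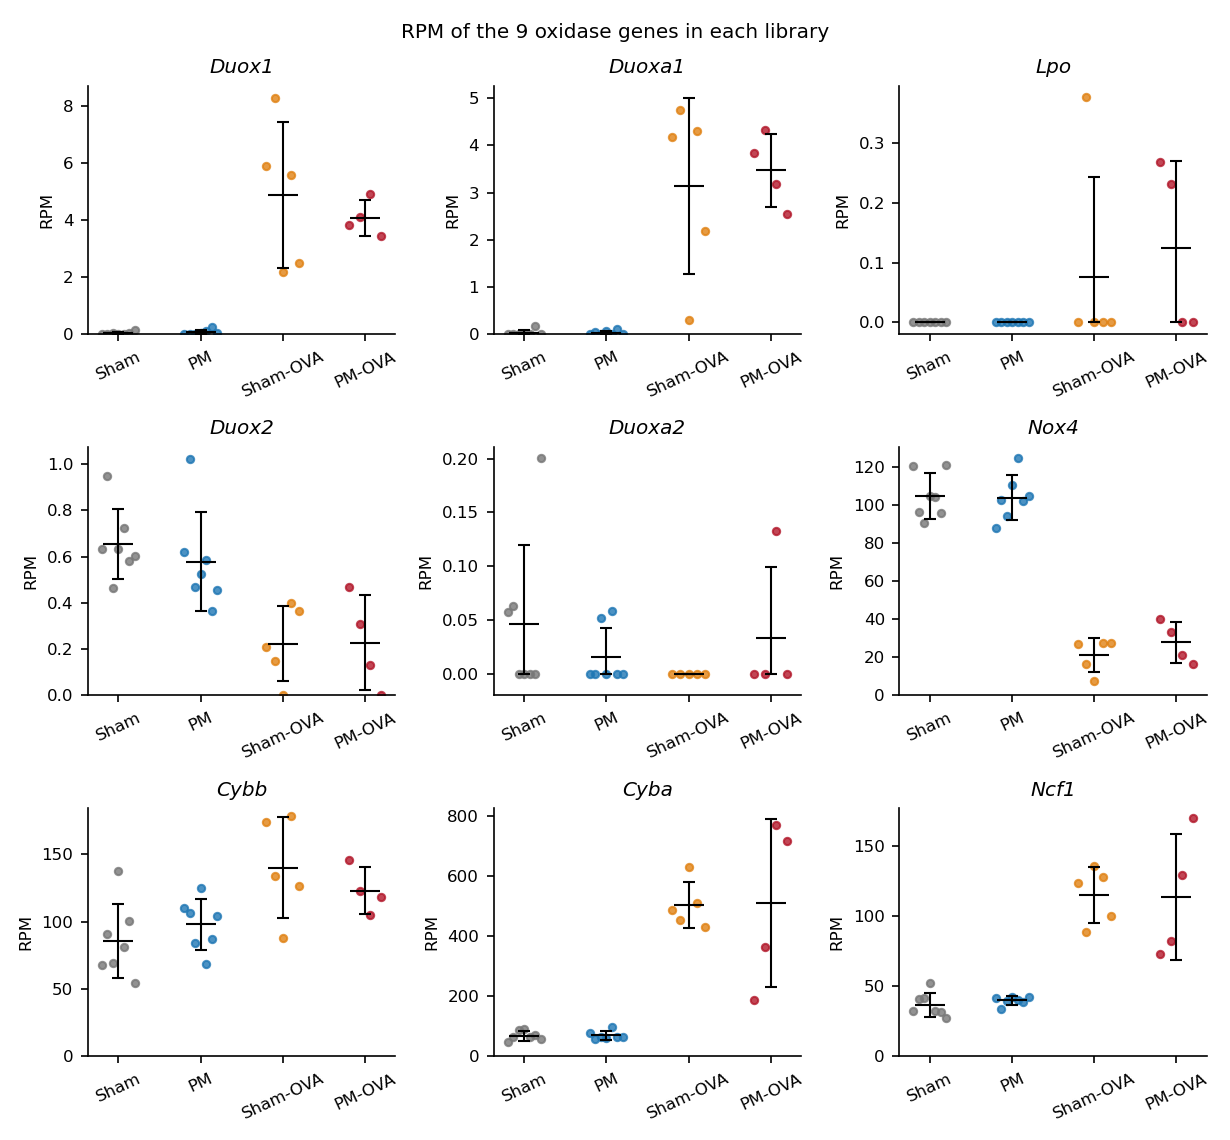
RPM of each of the 9 genes (y axes, linear, each with its own scale) in the 23 libraries by group (x axis). Points are libraries, and bars are the mean and SD with the lower bar stopped at 0. Duox1 was between 2.17 and 8.28 RPM in the OVA libraries and at most 0.244 RPM in the others, while Nox4 was at most 40.2 RPM with OVA and at least 88.1 RPM without.

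Duox1 was almost absent without OVA. Sham libraries ran from 0 to 0.151 RPM (median 0) and PM libraries from 0 to 0.244 RPM (median 0.0569), in all 5 and 8 reads. Sham-OVA replicates 1 to 5 had 5.91, 8.28, 2.17, 5.58 and 2.48 RPM, and PM-OVA replicates 1 to 4 had 3.83, 4.10, 4.91 and 3.45 RPM. All 9 OVA libraries lay above all 14 others. The pooled ratio of reads was 130-fold in the Sham cohort (95% interval 55.0 to 403, from 306 against 5 reads) and 60.7-fold in the PM cohort (30.1 to 143, from 166 against 8), with intervals that cover counting error only. The fitted difference was 3.18 (SE 0.27, adjusted p = 2.91e-07, limma) and 3.01 (SE 0.18, adjusted p = 2.73e-07).

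Duoxa1, the maturation factor of Duox1, was higher in the same libraries. It was at 0 in 6 of the 7 Sham and 4 of the 7 PM libraries and reached 0.174 RPM in Sham and 0.122 RPM in PM. Sham-OVA replicates 1 to 5 had 4.17, 4.74, 0.311, 4.30 and 2.19 RPM, and PM-OVA replicates 1 to 4 had 3.83, 4.33, 3.19 and 2.54 RPM. The groups did not overlap, but the low value of Sham-OVA replicate 3, the shallowest library, is a single read. Pooled reads differed 147-fold in the Sham cohort (49.6 to 719, from 208 against 3 reads) and 110-fold in the PM cohort (42.2 to 410, from 151 against 4). The fitted difference was 2.54 (SE 0.38, adjusted p = 3.71e-05, limma) and 2.88 (SE 0.17, adjusted p = 2.94e-07).

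**Figure D2:**
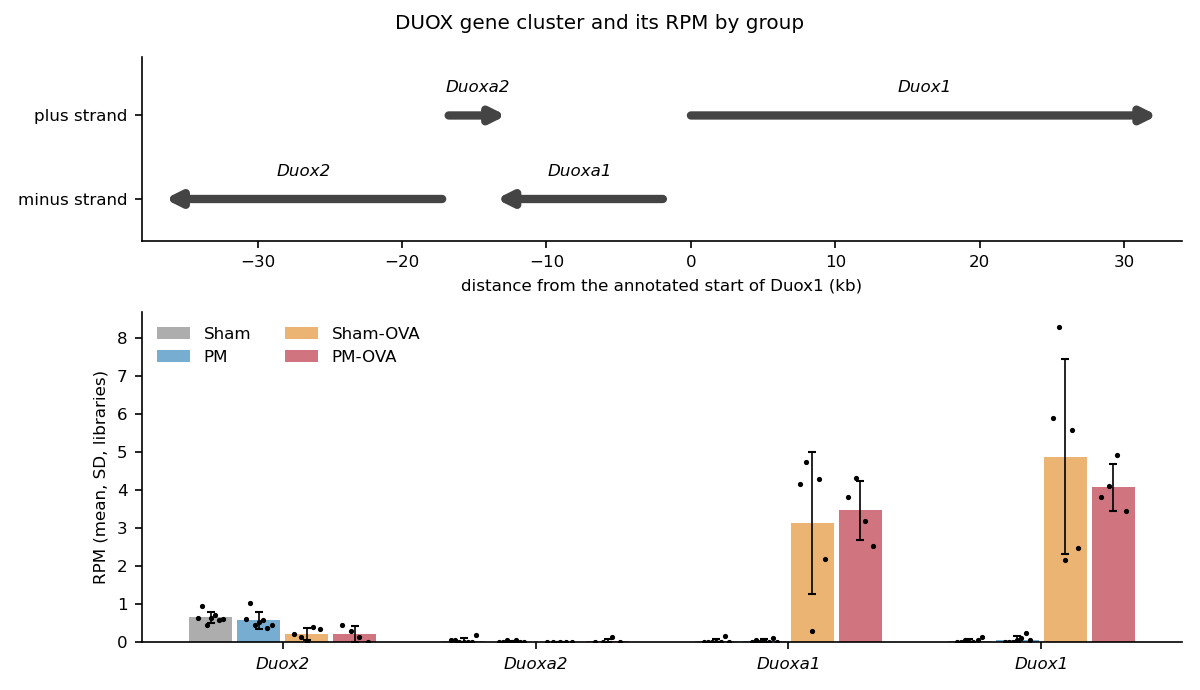
Upper panel, the DUOX genes drawn to scale by distance from the annotated start of Duox1 (x axis, kb), with arrows in the direction of transcription. Lower panel, RPM (y axis, linear) of each gene by group, with bars for the mean, lines for the SD (stopped at 0) and points for libraries; Duoxa1 and Duox1 are high in OVA libraries, Duox2 is at most 1.02 RPM and Duoxa2 at most 0.201 RPM.

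With the group means removed, Duox1 and Duoxa1 had a Pearson r of 0.785 over the 23 libraries. Duoxa1 was the 4th of 16794 genes most like Duox1, but Duox1 was only the 1243rd most like Duoxa1. Their r was 0.752 without the 3 shallowest libraries. Both were near 0 without OVA, so nearly all reads behind this value are from the 9 OVA libraries. Mymk and Guca2b stood nearest to Duox1 (r = 0.814 and 0.801), and Kif7, 2810006K23Rik and Tysnd1 nearest to Duoxa1 (r = 0.928, 0.925 and 0.921, falling to at most 0.746 without the 3 shallowest libraries).

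Duox2 and Duoxa2, on the other side of the cluster, were not higher with OVA. Duox2 ran from 0.463 to 0.9498 RPM in Sham (median 0.634) and from 0.367 to 1.02 RPM in PM (median 0.527). Sham-OVA replicates 1 to 5 had 0.208, 0.150, 0, 0.398 and 0.365 RPM, and PM-OVA replicates 1 to 4 had 0.470, 0.309, 0.133 and 0 RPM. Sham-OVA lay below every Sham library, PM-OVA overlapped PM, and the OVA groups held only 15 and 12 reads. Duox2 was tested only because libraries without OVA reached 0.5 RPM, which favours a lower value with OVA, so its p-values and the lack of overlap in the Sham cohort are a description and no support for a decrease. The fitted difference was -0.70 (SE 0.19, adjusted p = 0.00402, limma) and -0.59 (SE 0.22, adjusted p = 0.0290), beside a median of -0.74 and -0.69 over the 1654 genes of like exon length and of -0.27 and -0.26 over genes of like span from start to end. Neither passed in the count tests (edgeR adjusted p = 0.0572 and 0.191) or after quantile normalisation (-0.15 and -0.13, adjusted p = 0.414 and 0.516), and the PM call was lost without PM replicate 2, PM-OVA replicate 3 or PM-OVA replicate 4 (adjusted p = 0.0538, 0.0753 and 0.107). Without the 3 shallowest libraries the PM cohort differed by -0.26 (adjusted p = 0.363). Gm49776, Kbtbd11 and Cep135 had patterns most like Duox2 (r = 0.836, 0.822 and 0.822 over 23 libraries).

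Duoxa2 had 6 Sham reads, 2 PM reads, 0 Sham-OVA reads and 1 PM-OVA read. Its highest library was Sham replicate 7 at 0.201 RPM, and 4 of the 7 Sham, 5 of the 7 PM, all 5 Sham-OVA and 3 of the 4 PM-OVA libraries were at 0. Lpo, the peroxidase, was at 0 in all 14 libraries without OVA. It had 5 reads in Sham-OVA replicate 2 (0.376 RPM) and 4 and 3 reads in PM-OVA replicates 1 and 2 (0.269 and 0.232 RPM), and 0 in the remaining OVA libraries. Neither gene was tested and no fold is given.

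Epithelial markers stood beside these genes as follows. Epcam, an epithelial surface marker, was 73.8 ± 12.4 RPM in Sham and 99.5 ± 29.8 RPM in Sham-OVA, a difference of 0.38 (SE 0.21, adjusted p = 0.123, limma). In the PM cohort it rose by 0.49 (SE 0.15, adjusted p = 0.0132), from 73.5 ± 8.37 to 105 ± 26.8 RPM. Within a library, Duox1 against Epcam was higher by 2.81 on the log2 scale in Sham-OVA (adjusted p = 0.0101) and by 2.52 in PM-OVA (adjusted p = 0.0182, exact permutation tests, two-sided, adjusted over 24 tests). Duox1 reached 0.5 RPM in OVA libraries alone, and without OVA the 0.5 RPM added sets its side of this ratio. These p-values are therefore a description. Summed over 5 epithelial markers the level was 538 to 721 RPM in Sham, 565 to 935 in PM, 575 to 785 in Sham-OVA and 596 to 908 in PM-OVA, where Krt8 and Krt18 fell in both cohorts and Epcam rose in PM-OVA. Of 6 airway secretory and goblet cell markers, 3 rose (Muc5b, Muc5ac and Bpifb1) and 2 fell (Scgb3a2 and Cyp2f2) in both cohorts, and Muc5ac, a mucin of goblet cells, went from 0.489 ± 0.213 to 46.2 ± 23.6 RPM in the Sham cohort. Of 7 multiciliated cell markers, 3 fell in the Sham cohort (Dnah9, Ccdc39 and Hydin). In the PM cohort 4 rose (Foxj1, Dnah9, Tekt1 and Rsph1) and Hydin fell. None of the 7 passed in PM-OVA against Sham-OVA or in the interaction, so the cohorts were not shown to differ in them. Of these markers, Krt8 passed the filter only through libraries without OVA, which favoured its fall. The part of these cells in the Duox1 and Duoxa1 differences was not tested.

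Nox4 was the 1 abundant member that fell. Sham libraries ran from 90.5 to 121 RPM (median 104) and PM libraries from 88.1 to 125 RPM (median 103). Replicates 1 to 5 of Sham-OVA had 27.2, 16.5, 7.77, 27.7 and 27.5 RPM, and PM-OVA replicates 1 to 4 had 40.2, 33.3, 21.2 and 16.7 RPM. No OVA library reached the lowest library without OVA, and the 3 shallowest libraries held 3 of the 4 lowest values. The difference was -2.40 (SE 0.26, adjusted p = 2.46e-06, limma), or 0.190-fold, in the Sham cohort and -1.95 (SE 0.21, adjusted p = 2.54e-05), or 0.258-fold, in the PM cohort. Genes of like exon length had a median of -0.91 and -0.85, and without the 3 shallowest libraries Nox4 differed by -2.08 and -1.48.

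Markers of cells known to hold Nox4 moved as well. Of 5 fibroblast markers, Pdgfra and Tcf21 fell in both cohorts and none rose, and the summed level was 1185 to 1388 RPM in Sham, 1205 to 2004 in PM, 581 to 1167 in Sham-OVA and 563 to 1375 in PM-OVA. Of 6 endothelial markers, Cdh5, Tek and Kdr fell and Emcn rose in both cohorts, with summed levels of 2378 to 5335, 1523 to 5023, 2564 to 3334 and 2893 to 3714 RPM in the same order. Smooth muscle markers were mixed: Acta2, Tagln and Des rose in both cohorts, Myh11 fell in both and Cnn1 fell in the Sham cohort. No marker of these 3 lists was at 0 in any library, and their part in the Nox4 difference was not tested. Slc24a4, Svil and Rffl had patterns most like Nox4 once group means were removed (r = 0.967, 0.954 and 0.948 over 23 libraries, and 0.919, 0.901 and 0.859 over 20 without the shallowest).

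Of the phagocyte oxidase, Cyba changed most, Ncf1 less and Cybb least. Cyba ran from 47.5 to 91.6 RPM in Sham (median 64.0) and from 59.1 to 97.5 RPM in PM (median 64.6). Replicates 1 to 5 of Sham-OVA had 489, 455, 632, 513 and 433 RPM, and PM-OVA replicates 1 to 4 had 188, 365, 771 and 717 RPM. The groups did not overlap. Cyba rose by 2.88 (SE 0.17, adjusted p = 1.18e-08, limma), or 7.36-fold, in the Sham cohort and by 2.67 (SE 0.32, adjusted p = 5.57e-05), or 6.38-fold, in the PM cohort.

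PM-OVA replicate 1 had the lowest Cyba of the OVA libraries, and the shallower replicates 3 and 4 the highest. Cyba has an exon length of 1039 bp, in the shortest of the 10 bins, which had a median difference of 0.17 and 0.20. The gap between the medians of the shortest and the longest bin, taken against the Sham mean of each gene, was 0.63, 1.25, 1.58 and 1.39 on the log2 scale in PM-OVA replicates 1 to 4, and 1.14 to 1.47 in Sham-OVA, so replicate 1 had the narrowest gap as well as the lowest Cyba. Without the 3 shallowest libraries, which leaves 2 in PM-OVA, Cyba rose by 2.79 (adjusted p = 2.98e-10, limma) in the Sham cohort and by 1.92 (adjusted p = 1.29e-04) in the PM cohort. Cox4i1, Ap2s1 and Mpdu1 were most like it (r = 0.972, 0.971 and 0.967 over 23 libraries), with exon lengths of 1550, 1472 and 2420 bp. The whole of Cyba is overlapped by Gm20388 on the opposite strand, which was not analysed here.

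**Figure D3:**
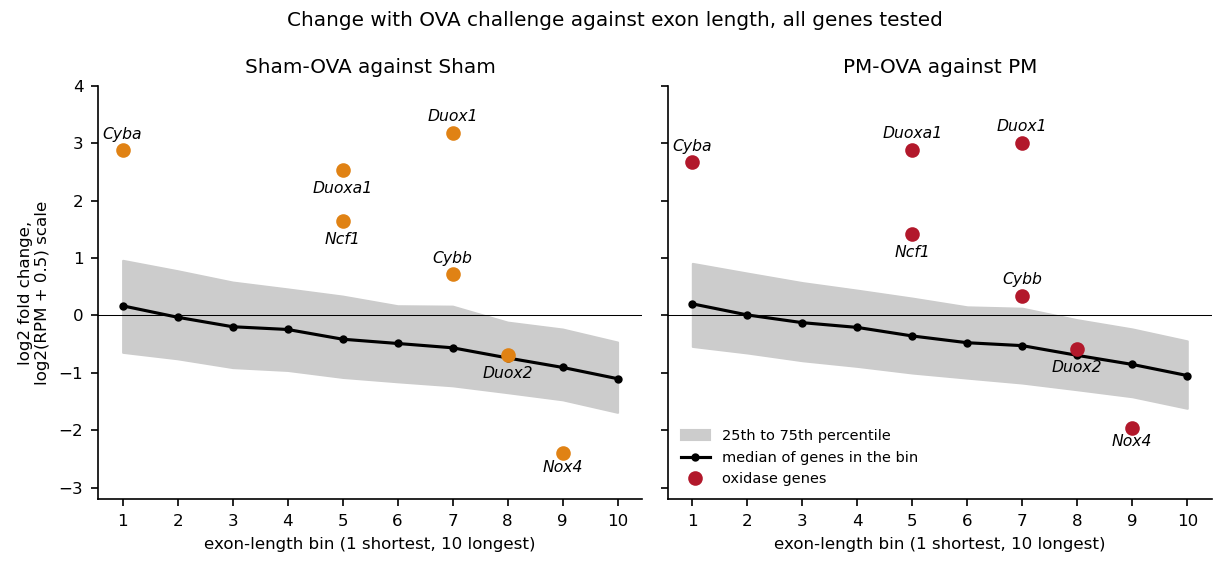
Log2 fold change with OVA (y axis) by exon length of the gene in 10 bins of equal size (x axis, 1 shortest), for the Sham cohort (left) and the PM cohort (right). The line is the median and the band the 25th to 75th percentile of all genes tested, and coloured points are the 7 oxidase genes; the median goes from 0.17 to -1.10 on the left and from 0.20 to -1.05 on the right, and Duox2 lies near it.

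Ncf1 ran from 27.7 to 52.5 RPM in Sham (median 32.5) and from 34.1 to 42.6 RPM in PM (median 39.97). In Sham-OVA replicates 1 to 5 it was 124, 88.5, 136, 127 and 99.5 RPM, and in PM-OVA replicates 1 to 4 it was 72.8, 82.3, 129 and 170 RPM. Every OVA library was above every other. Ncf1 rose by 1.64 (SE 0.17, adjusted p = 1.76e-06, limma), or 3.12-fold, in the Sham cohort and by 1.42 (SE 0.20, adjusted p = 1.43e-04), or 2.67-fold, in the PM cohort, with 1.58 and 0.95 without the 3 shallowest libraries. Gtf2ird2, which overlaps 4303 bp of Ncf1 on the opposite strand, went the other way, by -0.78 (SE 0.27, adjusted p = 0.0192) and -0.73 (SE 0.28, adjusted p = 0.0365). Dbnl, Syngr2 and Coro1a had the patterns most like Ncf1 (r = 0.887, 0.882 and 0.873).

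Cybb ran from 54.2 to 138 RPM in Sham (median 81.4) and from 68.7 to 125 RPM in PM (median 104). Sham-OVA replicates 1 to 5 had 174, 134, 87.6, 178 and 127 RPM, and PM-OVA replicates 1 to 4 had 146, 123, 105 and 118 RPM. Both OVA groups overlapped their own group without OVA. Cybb rose by 0.72 (SE 0.23, adjusted p = 0.0118, limma), or 1.64-fold, in the Sham cohort and differed by 0.34 (95% interval -0.02 to 0.70, adjusted p = 0.0865) in the PM cohort. The PM value passed in each fit that rescaled the libraries: 0.71 with median-of-ratios scaling (adjusted p = 0.00195), 0.65 after quantile normalisation (adjusted p = 0.00213) and 0.71 with edgeR on recovered reads (adjusted p = 0.00186). The difference between the cohorts was -0.37 (95% interval -0.99 to 0.24, adjusted p = 1.00, limma interaction), so the 2 responses were not shown to differ. Shisa5, Ssrp1 and Aplp2 were most like Cybb (r = 0.878, 0.869 and 0.865).

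**Figure D4:**
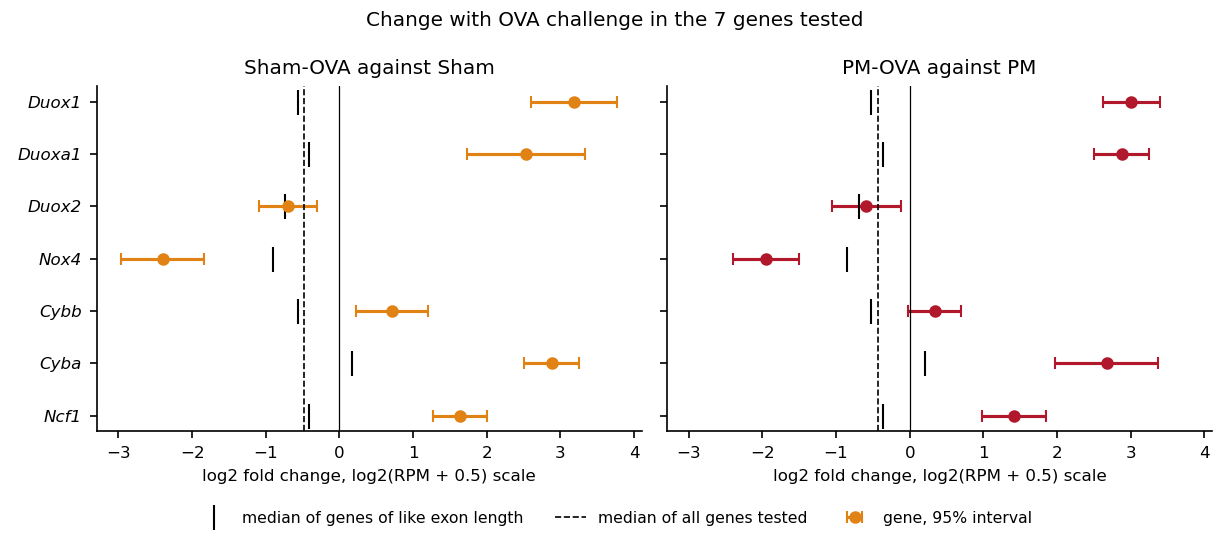
Log2 fold change with OVA (x axis) of the 7 genes tested (y axis), for the Sham cohort (left) and the PM cohort (right). Points are limma estimates with 95% intervals, black ticks the median of genes of like exon length and the dashed line the median of all genes tested; Duox2 lies at the ticks for exon length, and the interval of Cybb in the PM cohort reaches -0.02.

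The partners of the phagocyte oxidase were then set against each other within a library, where a scaling factor of the library cancels but for the 0.5 RPM added. The trend with gene length does not cancel. Genes of like exon length to Cyba had a median difference of 0.17 and 0.20 in the Sham and PM cohorts. For genes of like exon length to Cybb it was -0.56 and -0.53. The part of this trend in the ratios was not tested. Cyba per Cybb, as a ratio of RPM, was 0.842 ± 0.234 in Sham (n = 7) and 3.94 ± 1.85 in Sham-OVA (n = 5), and 0.756 ± 0.311 in PM (n = 7) and 4.41 ± 2.78 in PM-OVA (n = 4). The log2 ratio of Cybb to Cyba differed by -2.16 (adjusted p = 0.0101) and -2.33 (adjusted p = 0.0216, exact permutation tests, two-sided), and that of Cybb to Ncf1 by -0.92 and -1.08 (adjusted p = 0.0101 and 0.0216, exact permutation tests). The groups of the Sham cohort did not overlap in either ratio, and PM-OVA replicate 1 overlapped PM in both. A Cybb ratio to Ptprc, the CD45 antigen of leukocytes, was higher by 0.63 and 0.45 (adjusted p = 0.0242 in both cohorts, exact permutation tests), with overlap in the Sham cohort and none in the PM cohort. Ptprc itself did not pass in either cohort, while the leukocyte markers Laptm5, Coro1a and Cd52 rose in both. The median difference of the 5 leukocyte markers was 1.77 and 1.31. Ratios to the markers that rose were not taken, so a rise of Cybb per leukocyte was not shown.

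**Figure D5:**
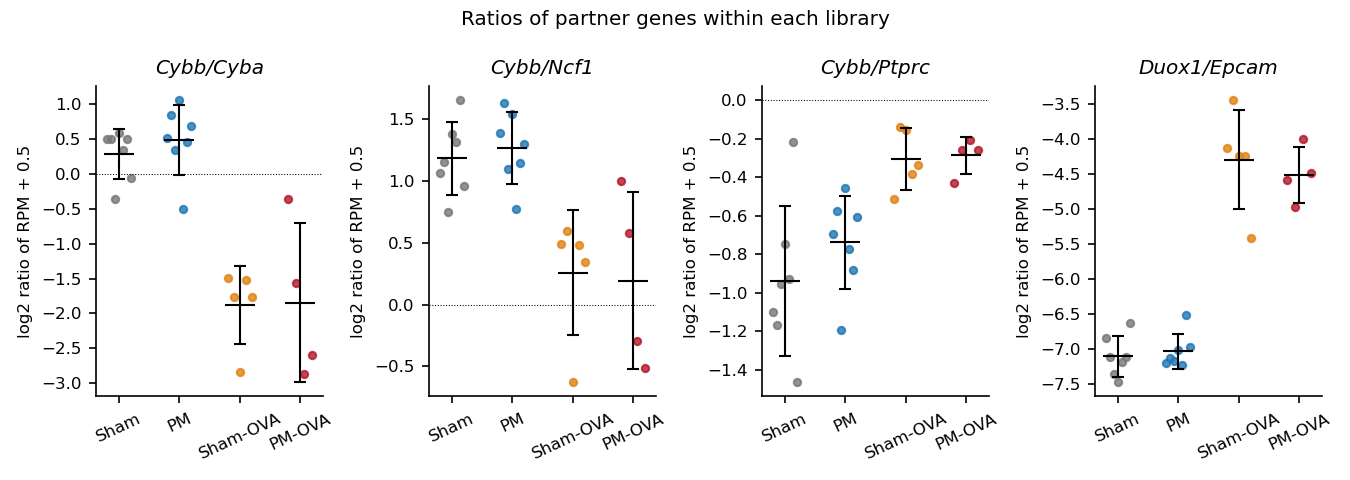
Log2 ratio of RPM + 0.5 of 2 genes in the same library (y axes) by group (x axis), for Cybb to Cyba, Cybb to Ncf1, Cybb to Ptprc and Duox1 to Epcam. Points are libraries, and bars the mean and SD; the first 2 ratios are lower and the last 2 higher in OVA libraries, by -2.16, -0.92, 0.63 and 2.81 in the Sham cohort.

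Leaving out the 3 shallowest libraries left 4 and 2 OVA libraries, and 3 of the 24 ratio tests then passed in place of 11. The Cybb to Cyba ratio of the PM cohort was then -1.45 (adjusted p = 0.167, exact permutation test). Duox1 to Duoxa1 was higher by 0.64 in Sham-OVA (adjusted p = 0.0216, exact permutation test) and by 0.38 without Sham-OVA replicate 3 (adjusted p = 0.0595), and by 0.13 in PM-OVA (adjusted p = 0.592). Without OVA both genes were at or near 0, where the 0.5 RPM added sets this ratio. Pooled reads rose 130-fold for Duox1 and 147-fold for Duoxa1 in the Sham cohort, so a rise of Duox1 over Duoxa1 was not shown. Duox2 to Duoxa2 differed by -0.58 and -0.63 (adjusted p = 0.0227 and 0.0331, exact permutation tests), where Duoxa2 adds few reads, and it did not pass with 0.1 RPM added (adjusted p = 0.109 and 0.0808).

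Leukocyte markers moved beside Cybb, Cyba and Ncf1. Of 5 general leukocyte markers, Laptm5, Coro1a and Cd52 rose in both cohorts, and the summed level was 425 to 879 RPM in Sham, 495 to 646 in PM, 1700 to 2561 in Sham-OVA and 1359 to 2264 in PM-OVA. Ptprc itself was 163 ± 40.5 RPM in Sham and 177 ± 62.7 RPM in Sham-OVA (difference 0.08, SE 0.23, adjusted p = 0.766, limma), and 163 ± 23.6 and 152 ± 32.1 RPM in PM and PM-OVA (-0.11, SE 0.16, adjusted p = 0.564). Of 6 interstitial macrophage markers, C1qa, C1qb, C1qc and Apoe rose in both cohorts, and Csf1r did not pass in either. Alveolar macrophage markers fell in 4 of 6 (Marco, Fabp1, Plet1 and Cidec) in both cohorts, while Atp6v0d2 of the same list rose in the PM cohort. Of 5 eosinophil markers, Epx, Ccr3, Il5ra and Prg2 rose in both cohorts and Siglecf fell in both, from 7.89 to 3.76 and from 8.55 to 3.22 RPM, and Epx was at 0 in all 14 libraries without OVA. Neutrophil markers were mixed, with Retnlg up and Csf3r and Cxcr2 down in both cohorts and Ly6g up in the PM cohort. Of 5 B cell markers, Cd79b rose in both cohorts, while Cd79a, Ms4a1 and Pax5 did not pass in either. Epx and Prg2 passed the filter only through OVA libraries and Fabp1 only through libraries without OVA, which favoured their differences. The part of these cells in the oxidase differences was not tested.

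Divided by exon length (GENCODE M21), the order of levels changed with OVA. Cyba led in every group, from 66.5 ± 15.7 RPM per kb in Sham to 485 ± 74.9 in Sham-OVA and 491 ± 270 in PM-OVA. Behind it in Sham came Cybb (14.8 ± 4.74), Nox4 (12.4 ± 1.41) and Ncf1 (10.1 ± 2.32 RPM per kb), whose ranges overlapped. In Sham-OVA the order was Ncf1 (31.4 ± 5.45), Cybb (24.1 ± 6.43) and Nox4 (2.52 ± 1.06 RPM per kb), of which the first 2 overlapped and Nox4 stood apart. Duox1 (0.927 ± 0.485) and Duoxa1 (0.790 ± 0.468 RPM per kb) were close to each other and overlapped in Sham-OVA, and Duox2 was 0.0968 ± 0.0224 RPM per kb in Sham and 0.0332 ± 0.0241 in Sham-OVA. Whether introns were counted is not given in the sources used here, so these levels are approximate.

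The remaining genes of the pathway were taken as lists. Among other subunits of the phagocyte complex, Ncf4 and Rac2 rose and Rac1 fell in both cohorts, while Rap1a and Cybc1 did not pass. Ncf4 (p40phox) rose by 1.65 (SE 0.26, adjusted p = 6.00e-05, limma) and 1.27 (SE 0.17, adjusted p = 1.12e-04), and Rac2, the Rac GTPase of blood cells, by 1.81 (SE 0.27) and 1.22 (SE 0.15). Rac1, the widely expressed form, was 120 ± 18.4 RPM in Sham and 46.9 ± 27.2 in Sham-OVA, and 129 ± 12.5 and 49.9 ± 43.5 in PM and PM-OVA. Noxo1, the organiser of NOX1, rose by 1.29 (SE 0.16, adjusted p = 8.51e-06) and 1.46 (SE 0.19, adjusted p = 9.05e-05), and Noxa1, its activator, by 1.18 in the PM cohort (SE 0.34, adjusted p = 0.00894) with 0.54 in the Sham cohort (SE 0.26, adjusted p = 0.0726). Nox1 itself differed by -0.92 and -0.99 from a mean of at most 0.698 RPM without OVA. It was at most 0.347 RPM in Sham-OVA and 0.134 RPM in PM-OVA. Nox1 passed the filter only through libraries without OVA, which favours a lower value with OVA, so this is no support for a decrease. Nox3 was at 0 in every library.

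Among 6 other regulators, Hvcn1, the proton channel that balances the charge of phagocyte NOX2, rose by 1.51 (SE 0.23, adjusted p = 4.41e-05, limma) and 1.27 (SE 0.18, adjusted p = 1.32e-04). Sh3pxd2a (TKS5), an organiser adaptor, fell by 1.32 in both cohorts. Nrros, a chaperone that limits NOX2 in phagocytes, rose in the Sham cohort (0.63, SE 0.20, adjusted p = 0.0113) and was at 0.31 in the PM cohort (SE 0.17, adjusted p = 0.113), and Poldip2, Sh3pxd2b and Aqp3 did not pass in either. Among other haem peroxidases, Epx and Mpo were higher with OVA, from 0 and near 0 to at most 2.86 and 2.15 RPM. Both passed the filter only through OVA libraries, which favoured a difference, so their calls are a description. Mpo had a median of 0.292 RPM in Sham-OVA and 0.519 RPM in PM-OVA, with 1 library of each group at 0. Pxdn (peroxidasin) fell by 2.33 (SE 0.39) and 2.28 (SE 0.39).

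Slc26a4 (pendrin), an anion exchanger of airway epithelium that carries thiocyanate, rose in both cohorts. It was 2.72 ± 1.44 RPM in Sham and 4.50 ± 3.47 RPM in PM, against 254 ± 76.5 RPM in Sham-OVA and 208 ± 24.9 RPM in PM-OVA. No OVA library was below 154 RPM and no other library was above 10.9 RPM. Its log2 difference was 6.35 (SE 0.27, adjusted p = 7.70e-10, limma) and 5.68 (SE 0.46, adjusted p = 3.13e-06). Ano1, a chloride channel, fell by 1.79 (SE 0.23) and 1.60 (SE 0.31), and Cftr was lower in the PM cohort (-0.56, SE 0.18, adjusted p = 0.0142) with -0.34 in the Sham cohort (SE 0.19, adjusted p = 0.121).

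Enzymes that remove superoxide and hydrogen peroxide moved both ways. Of 8 genes, Sod1, Sod2, Gpx1 and Prdx5 rose in both cohorts, Gpx3 rose in the Sham cohort, and Cat (catalase) and Prdx6 fell in both. Gpx1, a glutathione peroxidase, went from 369 ± 86.0 to 954 ± 96.1 RPM in the Sham cohort and from 371 ± 58.6 to 911 ± 109 RPM in the PM cohort. Catalase went from 264 ± 43.2 to 116 ± 42.3 RPM and from 247 ± 15.4 to 127 ± 31.5 RPM. Mitochondrial Sod2 rose by 0.90 in both (SE 0.14), and Sod3, the extracellular form, did not pass. No gene named here from the pathway lists passed in PM against Sham, in PM-OVA against Sham-OVA or in the interaction.

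Maternal PM2.5 exposure alone was not seen to change any of these genes. In PM against Sham, 0 of the 7 passed an adjusted p of 0.05 (limma), as did 0 of the 16795 genes tested, 0% in all, with 731 genes and none of the 7 at an unadjusted p under 0.05. edgeR and DESeq2 called 0 of the 7. The differences ran from -0.11 for Duox2 (95% interval -0.40 to 0.17) to 0.22 for Cybb (-0.15 to 0.60), and that of Nox4 had the narrowest interval (-0.19 to 0.17). All 7 genes overlapped between the groups, as did all but 0.00595% of the genes tested.

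The same held between the OVA groups, where intervals were wider. In PM-OVA against Sham-OVA, 0 of the 7 and 0% of all genes passed (limma), with 313 genes and none of the 7 at an unadjusted p under 0.05, and edgeR and DESeq2 called 0 of the 7. All 7 genes overlapped between the groups, where 0.607% of all genes did not, 0.31% higher and 0.298% lower. Differences ran from -0.18 for Cyba (95% interval -1.04 to 0.68) to 0.43 for Nox4 (-0.51 to 1.38), and Duoxa1 had the widest interval (-0.85 to 1.59). In the interaction of maternal exposure and OVA, 0 of the 7 and 0% of all genes passed (limma), with 854 genes and none of the 7 at an unadjusted p under 0.05, and the values ran from -0.37 for Cybb to 0.45 for Nox4 (95% interval -0.29 to 1.18).

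At a stricter threshold, an adjusted p under 0.000001 with a log2 fold change above 1 in either direction, Duox1 and Cyba passed in the Sham cohort, both higher, where 4.51% of all genes did, 1.98% higher and 2.53% lower. Duox1 and Duoxa1 passed in the PM cohort, both higher, where 0.286% did, 0.262% higher and 0.0238% lower. Duox1 and Duoxa1 passed the filter only through OVA libraries, which favoured a difference. Their p-values are therefore a description, and the shares of all genes are no fair measure for them. The 2 cohorts have different numbers of OVA libraries, so a gene on one side of the threshold in 1 cohort is not shown to differ between them.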

How the data were processed

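RNA-seq values of 23 lung libraries were used, 7 Sham, 7 PM, 5 Sham-OVA and 4 PM-OVA. In the study, 100 bp single-end reads were trimmed with Trimmomatic, aligned to GRCm38 with Bowtie2, sorted with SAMtools and counted per gene in SeqMonk, and the submitters' processing notes name bcl2fastq and the build mm10. The authors deposited RPM per gene and library, which are reads scaled to the size of the library; the table is named as RPKM, but its values are whole multiples of what 1 read is worth in each library, with no correction for length. Within a tolerance of 0.01, or a wider one in proportion to the count for genes with many reads, 100% of the values came out as whole reads. High values were therefore checked less strictly. Whether counting used exons or strand is not given in the sources used here. Reads on genes ranged from 2298645 to 17393579, so 1 read was worth 0.0502 to 0.311 RPM.

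A gene that reached 0.5 RPM in 4 or more of the 23 libraries was tested with limma 3.58.1 (R 4.3.3) on log2(RPM + 0.5) with a variance trend, each pair of groups alone and the interaction over all 4, with Benjamini-Hochberg adjustment over the 16795 genes. Ratios of partner genes were compared with two-sided exact permutation tests of the absolute difference in means (Python 3.11.15), adjusted over 24 tests. edgeR 4.0.16 and DESeq2 1.42.0 were run on the recovered reads as alternatives. edgeR called 5584 genes higher and 5669 lower in the Sham cohort and 5120 and 5095 in the PM cohort, and DESeq2 called 5362 and 6392, and 5323 and 5587. Other alternatives changed the pseudocount, filter, scaling, weights, replicate block and libraries. Scripts were tested on simulated data. All 9 members were named, with genes of the pathway lists, marker genes that passed, and the 3 genes most like each member by Pearson r with group means removed, and a few genes these rules name are not reported here. The members and lists were chosen with earlier results of these data known.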

Additional observations from a re-analysis of the deposited data

Results flagged for a closer look

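In 6 of 33 sets of values, each 1 gene in 1 group, a single library lay far from the others of its group. Chance gives this in about 1 of 20 sets of continuous values, but 5 of the 6 are sets at or near 0, where 1 library with a few reads can do it, so the number is not comparable with that rate. Duox1 in Sham replicate 7 was 0.151 RPM, Duoxa1 in Sham replicate 6 was 0.174 RPM and Duoxa2 in Sham replicate 7 was 0.201 RPM, each a few reads in groups near 0. Duoxa2 in PM-OVA replicate 3 was 0.133 RPM, which is 1 read. Lpo in Sham-OVA replicate 2 was 0.376 RPM, from 5 reads, with the other Sham-OVA libraries at 0. Ncf1 in PM replicate 2 was 34.1 RPM, below the other PM libraries.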

How the results depend on the processing

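At an adjusted p under 0.000001 with a log2 fold change above 1 in either direction, 2 oxidase genes passed between Sham-OVA and Sham and 2 between PM-OVA and PM, in place of 7 and 6. Leaving out 1 library at a time gave 7 to 7 and 5 to 7 genes, 0 to 0 in PM against Sham, PM-OVA against Sham-OVA and the interaction, and 9 to 11 ratio tests in place of 11. Without the 3 shallowest libraries, chosen after seeing the data, 3 ratio tests passed, where fewer libraries also raise the smallest p. With the replicate block, 7, 5, 0, 0 and 0 genes passed, as did 7 and 5 in the same libraries without the block, a fit also chosen after seeing the data. Replicate numbers follow the sample titles, and for most OVA libraries they are not the numbers in the library names. Libraries of the same title number correlated at -0.0665 to 0.115 in Sham-OVA against Sham. The values were -0.101 to 0.0625 in PM-OVA against PM and -0.248 to 0.104 in PM against Sham. Between PM-OVA and Sham-OVA they were -0.311 to 0.617, with 3 of 4 pairs over 0.1. Whether equal numbers pair animals is therefore not settled, and the block does not test it. Duox2 in the PM cohort did not pass with median-of-ratios scaling (-0.50, adjusted p = 0.0539, limma) or DESeq2 (-0.82, adjusted p = 0.232), and the cause was not tested. Calls over all genes were 43.4% and 44.7% higher with median-of-ratios scaling, 48.5% and 49.3% with quantile normalisation and 45.6% and 48.8% with DESeq2, against 30.2% and 30.8%. In the interaction, array weights called 651 genes higher and 3965 lower and leaving out the 3 shallowest libraries 612 and 109, against 0, with 0 of the oxidase genes in both. Their lowest adjusted p over all settings was 0.0603, for Cybb. No result changed sign with a call. Few reads limit Duox1, Duoxa1, Duox2, Duoxa2 and Lpo.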
